A study of Mus musculus with 30 samples.

Results

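The glycogen genes were 9 members, chosen by name: Pygm, Gys1, Gbe1, Gyg1, Ugp2, Phka1, Phkg1, Ppp1r3a and Ppp1r3c. Each was found on 1 row of the deposited tables, which hold 57186 rows, and all 9 were among the 12030 genes that passed the filter on low values (more than 20 reads and more than 0.5 FPKM on average). RNA was sequenced from gastrocnemius muscle, collected together with plantaris, of male wild-type C57BL/6J mice kept singly with a running wheel. The LD group (n = 14) lived on a fixed light-dark cycle, and in the ADV group (n = 16) the cycle was advanced by 8 h every 4 days. Both schedules lasted 64 weeks, and each library came from 1 mouse. Before the schedules, every mouse had been kept on a light-dark cycle and then in constant darkness, and 2 LD mice were lost, so the LD group holds the survivors. Tissue was taken at different daytime hours, which are not known here mouse by mouse. Because a whole muscle was sequenced, fewer cells of a type and less RNA per cell cannot be told apart.

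Exon reads per library ranged from 18875468.5 to 28512674. The lists of skeletal muscle markers (6 of 6 tested) and fast fiber markers (9 of 9 tested) held no gene that differed between the groups at a false discovery rate (FDR) under 0.05. Their summed levels were 50370 to 62890 FPKM in LD and 51950 to 70230 in ADV for muscle, and 45940 to 62480 and 42920 to 60280 for fast fibers. The summed slow fiber markers ranged from 42.69 to 757.4 FPKM in LD and from 183.2 to 1653 in ADV, with 0 of 7 called. Their log2 fold changes, ADV over LD, ran from 0.23 (Atp2a2) to 0.67 (Myh7b). Among the other lists, Fabp4 (1 of 6 adipocyte genes) and Pecam1 (1 of 5 endothelium genes) were higher and Pdgfra (1 of 5 fibroblast genes) was lower in ADV. Fos, Egr1, Atf3 and Ier2, 4 of the 6 immediate early genes tested, were higher in ADV, beside 5.74% of all genes. The summed level of that list ran from 29.87 to 72.94 FPKM in LD and from 28.61 to 265.4 in ADV. The part of these other cells and of this response in the values below was not tested.

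Muscle stores glucose as glycogen and spends it during contraction. Glycogenin (Gyg1) primes the granule, UDP-glucose pyrophosphorylase (Ugp2) makes the activated sugar, glycogen synthase (Gys1) extends the chains and the branching enzyme (Gbe1) adds branch points. Glycogen phosphorylase (Pygm) removes glucose units from the chain ends. Phosphorylase kinase, which switches phosphorylase on, contains a regulatory alpha subunit (Phka1) and a catalytic gamma subunit (Phkg1) in muscle. Ppp1r3a and Ppp1r3c target protein phosphatase 1 to glycogen, where it turns synthase on and phosphorylase off. The muscle clock, in which BMAL1 and CLOCK bind E-box DNA and drive Dbp, whose protein binds D-box DNA, is known to time many genes of glucose handling.

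The 250 bases before the start of each member's row in the deposited table were read from GRCm39 and searched on both strands for an E-box (CACGTG), a D-box (TTATGTAA or TTACGTAA), a FOXO element (GTAAACA) and a TATA box (TATAAA). Gyg1 and Ppp1r3c held the E-box, which 8.29% of 12028 promoters of genes tested also held, and it lay 7 bases before the start of Gyg1 and 50 bases before that of Ppp1r3c. No member held either D-box, which 0.5% and 0.14% of promoters held, or the FOXO element, held by 2.2%. Ppp1r3a held the TATA box letters at 2 places, on opposite strands, the nearest 92 bases before the start (6.83% of promoters held them). A looser E-box, CANNTG, which includes CACGTG, was in 8 of 9 members, all but Ugp2, and in 57.57% of promoters. RefSeq's promoter table for this mouse held the last 50 bases of the window for 7 members. It had no window for Gyg1, and neither of its 2 windows for Ugp2 held them. A match shows that these letters are present and not that a factor was bound. The Gyg1 and Ppp1r3c windows are printed for their E-boxes, in capitals, and those of Pygm and Gbe1 because these genes moved in opposite directions across mice, as described further on. The windows are chr3:20209261-20209510 (minus strand, Gyg1), chr19:36714054-36714303 (minus, Ppp1r3c), chr19:6434179-6434428 (plus, Pygm) and chr16:70110587-70110836 (plus, Gbe1), each read 5′ to 3′ toward the gene.
Gyg1: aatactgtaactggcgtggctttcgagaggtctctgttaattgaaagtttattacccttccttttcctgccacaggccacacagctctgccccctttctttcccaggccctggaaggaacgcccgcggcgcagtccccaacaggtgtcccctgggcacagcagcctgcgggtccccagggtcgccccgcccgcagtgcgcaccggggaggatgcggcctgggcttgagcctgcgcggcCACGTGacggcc
Ppp1r3c: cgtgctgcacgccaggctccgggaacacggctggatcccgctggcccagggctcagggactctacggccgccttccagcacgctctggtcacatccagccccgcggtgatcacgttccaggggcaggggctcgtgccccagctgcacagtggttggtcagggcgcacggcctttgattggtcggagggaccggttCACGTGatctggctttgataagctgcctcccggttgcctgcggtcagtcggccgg
Pygm: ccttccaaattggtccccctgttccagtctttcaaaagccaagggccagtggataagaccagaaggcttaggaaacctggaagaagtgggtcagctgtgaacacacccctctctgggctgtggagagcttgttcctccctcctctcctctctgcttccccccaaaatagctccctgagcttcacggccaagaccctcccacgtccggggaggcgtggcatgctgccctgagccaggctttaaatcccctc
Gbe1: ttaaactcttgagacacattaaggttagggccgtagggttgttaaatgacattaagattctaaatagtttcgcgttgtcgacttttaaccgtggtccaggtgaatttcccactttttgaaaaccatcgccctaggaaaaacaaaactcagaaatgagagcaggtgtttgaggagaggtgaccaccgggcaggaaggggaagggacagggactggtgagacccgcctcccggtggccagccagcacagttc

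FPKM divides each count by transcript length, so levels can be compared between genes. Pygm was the most abundant member, with a mean of 2993 FPKM over all mice, and was the 20th most abundant of all genes tested. Ppp1r3c (270), Ugp2 (241), Gyg1 (191), Phkg1 (178), Gys1 (155) and Phka1 (146) formed a middle range. Ppp1r3a (27.5) and Gbe1 (20.9) were lowest. Of the 8 neighbouring pairs in this order, Ppp1r3c and Ugp2 did not differ beyond their spread (Ppp1r3c was higher in 15 of 30 mice, permutation p = 0.662 on paired log2 values), nor did Gys1 and Phka1 (Gys1 higher in 19 of 30, permutation p = 0.0957). In the latter pair Gys1 was the higher gene in 14 of 16 ADV mice and in 5 of 14 LD mice. The other 6 neighbours differed in 21 to 30 of 30 mice, with permutation p of at most 0.00164.

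The question for the 2 schedules was whether the level of each gene differed between them. At an FDR under 0.05 (edgeR quasi-likelihood test, adjusted over all 12030 genes), 0 of the 9 members passed the test of ADV against LD. Of all genes 10.9% did, 5.74% higher and 5.12% lower in ADV, and 0 of 9 is not clearly below that share. Without adjustment, 2 members had p under 0.05, against 3615 of all genes (30.0%), and DESeq2 also called 0 members. The median log2 fold change was -0.02 over the members and 0.00 over all genes. The 95% interval given with each difference bounds what could have gone undetected.

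**Figure D1:**
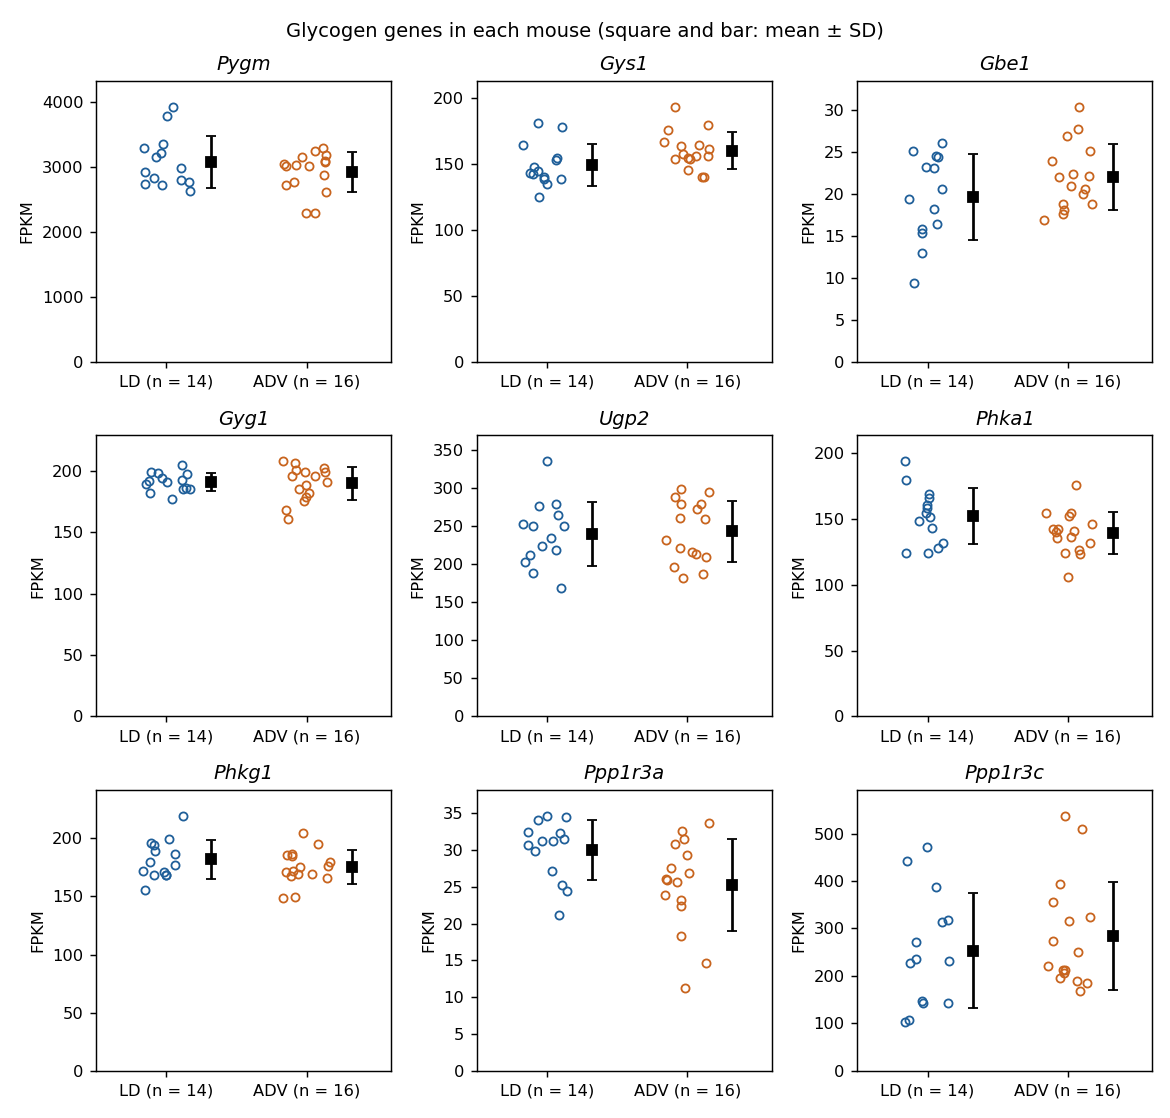
FPKM of the 9 glycogen genes (y axes from 0, each gene on its own scale) in each LD mouse (blue, n = 14) and each ADV mouse (orange, n = 16), with the group mean and SD as a black square and bar. The groups overlap for every gene, and the lowest Ppp1r3a values, 11.3, 14.7 and 18.4 FPKM, are ADV mice.

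Of the genes that build glycogen, Gys1 (ENSMUST00000003964.17, plus strand, chr7:45084268-45106043) was the synthase itself. It ranged from 125 to 181 FPKM in LD with a median of 144, and from 140 to 194 in ADV with a median of 157. In ADV, 14 of 16 mice exceeded the LD median, although the ranges overlapped and 1 ADV mouse passed the highest LD mouse. The mean was 149 ± 15.9 (SD, n = 14) in LD and 160 ± 14.1 (n = 16) in ADV, a log2 fold change of 0.09 ± 0.05 (SE; 95% interval -0.02 to 0.19; edgeR FDR = 0.243). With each library's trend with transcript GC content removed, the log2 fold change of Gys1 was 0.02 (edgeR FDR = 0.851). By the two-sided exact Wilcoxon test on FPKM, without adjustment, Gys1 had p = 0.0245 and Ppp1r3a p = 0.0308, so 2 of 9 members were under 0.05, beside 27% of all genes.

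Gbe1 (ENSMUST00000163832.8, plus strand, chr16:70110837-70366604) ran from 9.40 to 26.1 FPKM in LD with a median of 20.0, and from 16.8 to 30.4 in ADV with a median of 21.5. The lowest values, 9.40 and 13.0, were LD mice 23 and 33 (mice are named by the numbers in their labels). The groups overlapped, and the log2 fold change was 0.15 ± 0.11 (95% interval -0.08 to 0.37; edgeR FDR = 0.368), or 0.20 with the GC content trend removed (edgeR FDR = 0.254).

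Gyg1 (ENSMUST00000178328.8, minus strand, chr3:20176251-20209260) was the steadiest member. It ran from 178 to 205 FPKM in LD with a median of 192, and from 161 to 208 in ADV with a median of 193.5. The log2 fold change was -0.02 ± 0.04 (95% interval -0.11 to 0.07; edgeR FDR = 0.759). Ugp2 (ENSMUST00000102875.11, minus strand, chr11:21271138-21320477) ran from 168 to 335 FPKM in LD with a median of 241, and from 182 to 298 in ADV with a median of 245. All 16 ADV mice lay within the LD range, with a log2 fold change of 0.01 ± 0.09 (95% interval -0.17 to 0.19; edgeR FDR = 0.950). After removal of the GC content trend it was 0.14 (edgeR FDR = 0.243).

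On the breakdown side, Pygm (ENSMUST00000035269.15, plus strand, chr19:6434429-6448489) ran from 2625 to 3927 FPKM in LD with a median of 2951, and from 2289 to 3288 in ADV with a median of 3022. The ADV median was above the LD median while the ADV mean (2918 ± 306) was below the LD mean (3078 ± 401). The highest mice, 3927 and 3783 FPKM, were LD mice 33 and 23, and the lowest, 2289 and 2292, were ADV mice 31 and 24. The log2 fold change was -0.09 ± 0.07 (95% interval -0.24 to 0.05; edgeR FDR = 0.382), or -0.15 with the GC content trend removed (edgeR FDR = 0.184).

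Both phosphorylase kinase subunits had lower means in ADV without passing the test. Phka1 (ENSMUST00000052012.14, minus strand, chrX:101557581-101687852) ran from 124 to 194 FPKM in LD with a median of 153, and from 106 to 176 in ADV with a median of 141. Its log2 fold change was -0.14 ± 0.07 (95% interval -0.29 to 0.00; edgeR unadjusted p = 0.0497, FDR = 0.166), and 3 of 16 ADV mice were above the LD median. Phkg1 (ENSMUST00000026617.13, minus strand, chr5:129892262-129907924) ran from 155 to 220 FPKM in LD with a median of 179, and from 149 to 205 in ADV with a median of 174. Its log2 fold change was -0.07 ± 0.05 (95% interval -0.18 to 0.04; edgeR FDR = 0.372).

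The phosphatase-targeting subunits came last. Ppp1r3a (ENSMUST00000045096.6, minus strand, chr6:14713976-14755273) ran from 21.1 to 34.7 FPKM in LD with a median of 31.2, and from 11.3 to 33.6 in ADV with a median of 25.96. It had the largest difference of the 9 members with the GC content trend left in, with 3 of 16 ADV mice above the LD median and ADV mice 34, 25 and 27 below the lowest LD mouse. The log2 fold change was -0.27 ± 0.11 (95% interval -0.50 to -0.04; edgeR unadjusted p = 0.024, FDR = 0.110), or 0.832-fold. With the GC content trend removed it was -0.12 (edgeR FDR = 0.305), smaller in size than the values of Gbe1, Ppp1r3c, Pygm and Ugp2. Transcript GC content is 36.7% for Ppp1r3a, the lowest of the members. ADV mice 34 and 25 also had the highest shares of their reads on exons, 92.67% and 92.04%. The other ADV libraries lay between 91.14% and 91.73%, and the LD libraries between 90.91% and 91.3%. Most ADV libraries thus lay above every LD library, so exon share went with schedule in all comparisons of ADV with LD. Without ADV mice 34 and 25 the log2 fold change of Ppp1r3a was -0.17 ± 0.08 (edgeR FDR = 0.201), and 6.09% of all genes were called in place of 10.9%. The part of exon share in the result was not tested. Ppp1r3c (ENSMUST00000087321.4, minus strand, chr19:36709131-36714053) ran from 104 to 471 FPKM in LD with a median of 233, and from 169 to 538 in ADV with a median of 236. The mean was 253 ± 121 in LD and 285 ± 114 in ADV, and the log2 fold change was 0.15 ± 0.22 (95% interval -0.30 to 0.60; edgeR FDR = 0.677).

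**Figure D2:**
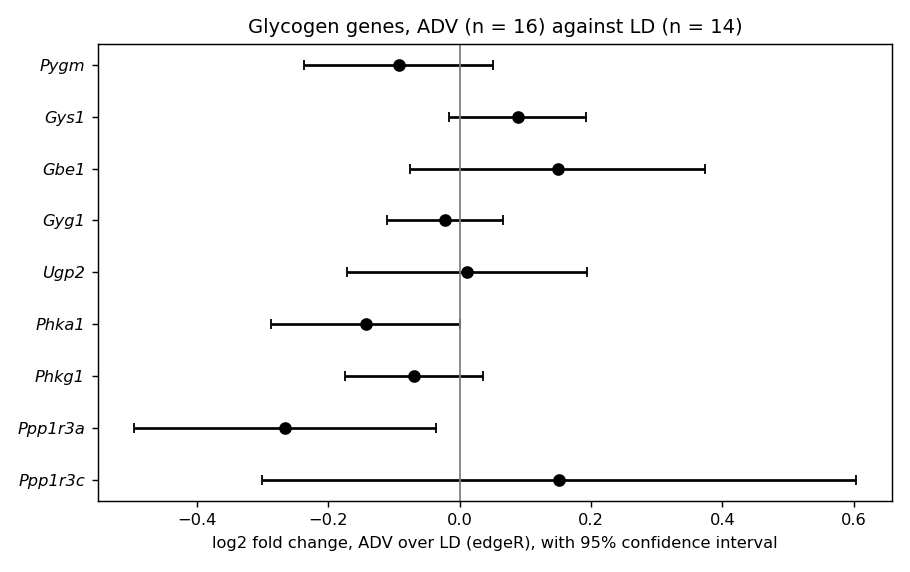
Log2 fold change (edgeR) of each glycogen gene, ADV (n = 16) over LD (n = 14), with a 95% interval from its SE and a t distribution. The estimates run from -0.27 for Ppp1r3a to 0.15 for Gbe1 and Ppp1r3c. The interval, unadjusted, leaves out 0 for Ppp1r3a. That of Phka1 ends at 0.001, although its own unadjusted edgeR p is 0.0497, so the interval is approximate.

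Phkg1, Ugp2 and Gys1 share exon sequence with a gene on the opposite strand, and although the libraries were made with a stranded kit, whether the counting used strand is not stated. In a later GENCODE release than the one behind the tables, 56.8% of the exon bases of Phkg1 overlapped Sumf2, 33.1% of those of Ugp2 overlapped Vps54 and Gm12043, and 16.3% of those of Gys1 overlapped Ruvbl2 and Gm72669. Mean FPKM was 2.38 for Sumf2, 5.46 for Vps54 and 8.05 for Ruvbl2, and reads of a gene and its antisense partner cannot be told apart without strand.

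The spread between mice was the next question. No member passed the test for a difference in spread between the groups (limma on absolute deviations of log2(FPKM + 0.1) from the group median, 0 of 9 members, beside 0.00831% of all genes). The members differed from one another instead: the SD within groups was 0.63 on the log2 scale for Ppp1r3c, above 98.0% of all genes tested, and 0.09 for Gyg1, above 3.4%. Ppp1r3a (0.34), Gbe1 (0.34) and Ugp2 (0.25) were above the median SD of all genes, 0.19, and Phka1 (0.18), Pygm (0.17), Gys1 (0.14) and Phkg1 (0.13) were below it. The highest LD mouse had 4.53 times the Ppp1r3c level of the lowest, against 1.15 times for Gyg1. In Ppp1r3a the SD was 0.21 in LD and 0.42 in ADV, with the low ADV mice 34, 25 and 27 named above, and the difference in mean absolute deviation had a permutation p of 0.162 (limma FDR = 0.829). In Gyg1 the SD was 0.06 in LD and 0.11 in ADV (permutation p = 0.0469, limma FDR = 0.829).

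The ratio of Dbp to Bmal1 served as a measured stand-in for clock phase, since these genes peak at different times of day. The log2 ratio was 1.19 ± 1.43 (SD, n = 14) in LD, from -2.14 to 3.31, and -0.95 ± 0.89 (n = 16) in ADV, from -2.44 to 1.40 (two-sided permutation p = 3e-05). Of the ADV mice, 15 of 16 lay within the LD range, and 7 of 14 LD mice within the ADV range. A different clock phase and a different hour of death cannot be told apart in this ratio.

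In neither group did a glycogen gene pass the test for a slope on this ratio. In one edgeR fit with a slope per group, 0 of 9 members had a slope with an FDR under 0.05 in LD (0.399% of all genes), in ADV (0.0499%) or in the difference between the slopes (0%). Without adjustment, 1515 genes had p under 0.05 for the slope in LD and 817 in ADV, and no member did. Pearson's r in LD lay between -0.19 (Gbe1) and 0.22 (Phka1), and none of the 9 permutation p-values was under 0.463. In ADV r lay between -0.45 (Ppp1r3c) and 0.11 (Gbe1). For Ppp1r3c in ADV the permutation p was 0.0815 and Spearman's rho was -0.36 (permutation p = 0.172), and r was -0.12 without the 2 mice farthest from the median ratio. In total 18 relations to this ratio were computed. The E-box genes Gyg1 (r = -0.10 in LD and 0.07 in ADV) and Ppp1r3c (0.07 and -0.45) did not pass the test either. Without the 2 mice farthest from the median ratio, r was 0.11 and -0.32 for Gyg1, and 0.44 in LD for Ppp1r3c.

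**Figure D3:**
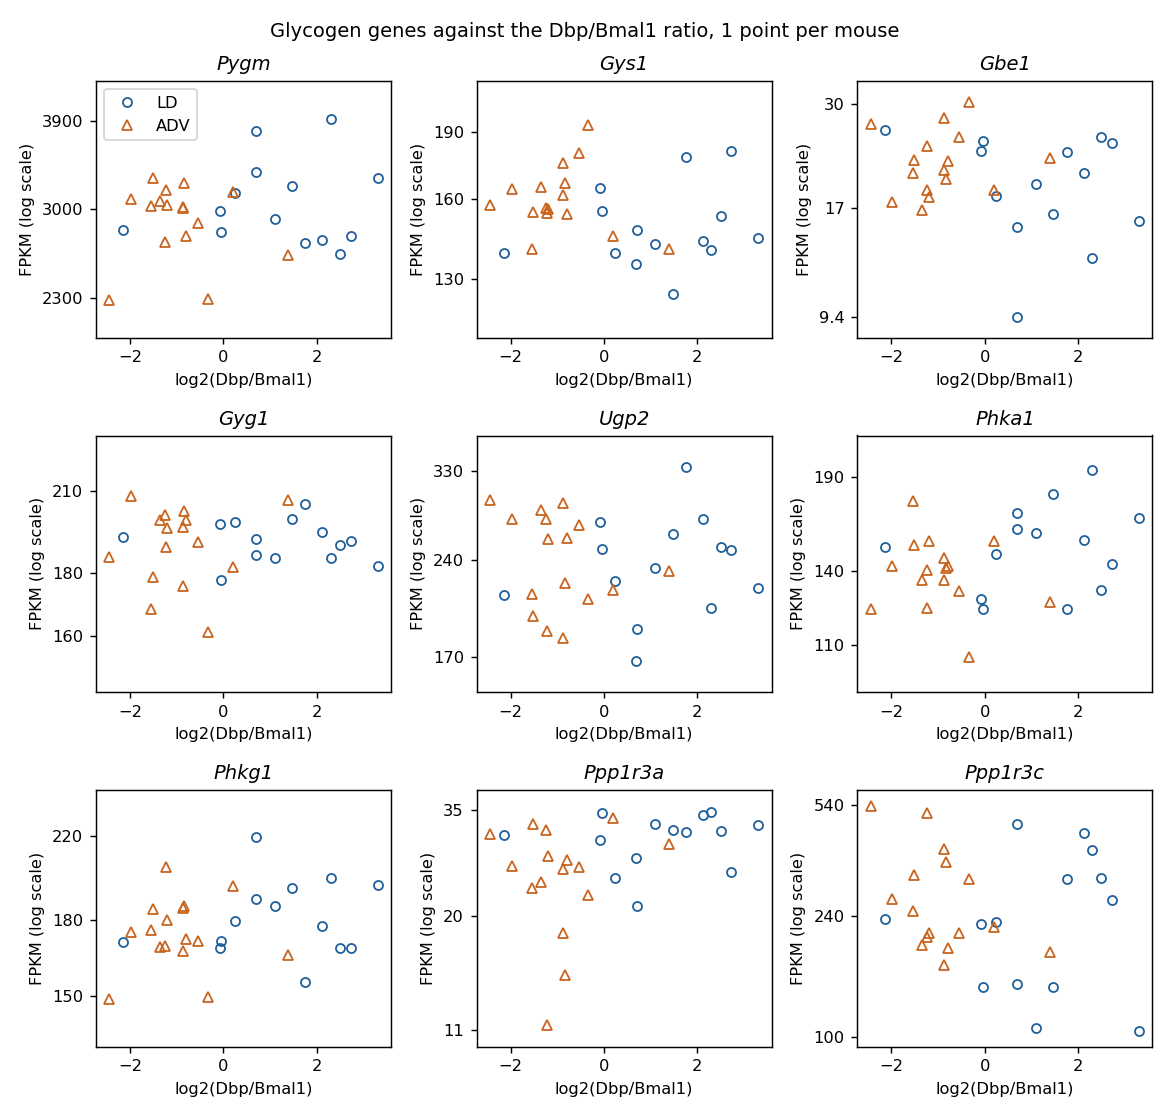
FPKM of each glycogen gene (y axes, log scale) against log2(Dbp/Bmal1) (x axes), with 1 point per mouse, LD as blue circles and ADV as orange triangles. No panel shows a slope that passed the test, and ADV points lie mostly to the left, at lower ratios.

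With the ratio as a covariate, 0 of 9 members differed between the groups (edgeR, 0% of all genes), and 1666 genes of all had an unadjusted p under 0.05, with none among the members. The log2 differences at equal ratio ran from -0.21 ± 0.15 (Ppp1r3a, FDR = 0.531) to 0.12 ± 0.07 (Gys1, FDR = 0.467).

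A second ratio was that of Myh4 to Myh2, chosen after the members' values were seen. Counts, p-values and FDRs for this ratio are therefore not independent of that choice. Myh2 was the gene most like Gbe1 over the mice (r = 0.93), and Myh4 was among the 3 most like Pygm (r = 0.91). Myh4 encodes the fastest and most glycolytic myosin heavy chain of mouse limb muscle, and Myh2 that of fast oxidative fibers. The log2 ratio was 4.42 ± 1.29 (n = 14) in LD, from 3.20 to 7.55, and 3.83 ± 0.60 (n = 16) in ADV, from 2.33 to 4.76 (two-sided permutation p = 0.114). LD mice 23 (7.55) and 33 (6.48) were highest and ADV mice 24 (2.33) and 31 (3.03) lowest, the same 4 mice that held the extreme values of Pygm.

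In LD, 4 of the 9 members had a slope on this ratio with an FDR under 0.05. Pygm, Phka1 and Phkg1 had positive slopes, 3 of 9 members beside 3.23% of all genes, and Gbe1 had a negative slope, beside 6.44%. For each doubling of the ratio in LD, Pygm was 1.103-fold higher (slope 0.14 ± 0.02 on the log2 scale, edgeR FDR = 1.27e-04), Phka1 1.097-fold (0.13 ± 0.03, FDR = 0.00155) and Phkg1 1.072-fold (0.10 ± 0.02, FDR = 4.3e-04). Gbe1 changed 0.807-fold (slope -0.31 ± 0.03, edgeR FDR = 2.09e-09). Gbe1 was 26.1 FPKM in LD mouse 34, with a log2 ratio of 3.89, and 9.40 in LD mouse 23, with one of 7.55. These calls in LD held without LD mice 23 and 33 and the 2 most extreme ADV mice, and without any 1 library. In either group such refits use the mice on which the ratio was chosen, so they are not independent support. The shares of all genes do not carry that choice, and are no like background for the members.

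In ADV the same 4 genes had slopes past the threshold and with the same signs (positive 3 of 9, beside 0.366% of all genes, and negative 1 of 9, beside 0.931%). The slopes were 0.25 ± 0.05 for Pygm (edgeR FDR = 0.00998), 0.24 ± 0.06 for Phka1 (0.0333), 0.18 ± 0.04 for Phkg1 (0.0179) and -0.34 ± 0.05 for Gbe1 (6.98e-04). The calls of 3 of them depended on ADV mouse 24. Without it the slopes were 0.22, 0.18 and 0.16 for Pygm, Phka1 and Phkg1. Their edgeR FDR was 0.387, 0.697 and 0.436 (unadjusted p = 0.00261, 0.0253 and 0.00442), while Gbe1 had a slope of -0.39 (FDR = 0.00484). Without the 2 mice of each group farthest from its median ratio, the ADV slopes were 0.14 for Pygm, 0.16 for Phka1 and 0.11 for Phkg1. These had edgeR FDR of 1 each (unadjusted p = 0.0514, 0.0491 and 0.0655), and Gbe1 had -0.40 (edgeR FDR = 0.031). Phka1 also missed the threshold without ADV mouse 22 (edgeR FDR = 0.0507) or 28 (0.0561). No difference between the ADV and LD slopes passed the test (0 of 9 members, 0% of all genes), with differences from -0.15 ± 0.30 (Ppp1r3c) to 0.15 ± 0.11 (Ugp2).

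Correlations over mice were computed on the same values. Gbe1 had r = -0.96 in LD (rho = -0.88; -0.91 without 2 mice) and -0.90 in ADV (rho = -0.88; -0.84 without 2 mice), with a permutation p for r of 1e-05 in both, the smallest that 100000 permutations can give. Pygm had r = 0.93 in LD (rho = 0.87; 0.89 without 2 mice) and 0.80 in ADV (rho = 0.77; 0.51 without 2 mice), with permutation p of 1e-05 and 3.8e-04. Phka1 had r = 0.78 in LD (rho = 0.90; 0.835 without 2 mice) and 0.72 in ADV (rho = 0.52; 0.42 without 2 mice), with permutation p of 4.5e-04 and 0.00184. Phkg1 had r = 0.91 in LD (rho = 0.88; 0.84 without 2 mice) and 0.72 in ADV (rho = 0.585; 0.41 without 2 mice), with permutation p of 1e-05 and 0.00175. Gys1 had r of -0.60 and -0.67 (permutation p = 0.0248 and 0.00505) and an edgeR FDR for the slope of 0.150 in LD and 0.427 in ADV. Ugp2 had r = -0.75 in LD (permutation p = 0.00169, slope FDR = 0.0638, or 0.0437 without ADV mouse 27 and 0.0455 without ADV mouse 34) and -0.04 in ADV (permutation p = 0.898). For Gyg1, Ppp1r3a and Ppp1r3c r lay between -0.20 and 0.38, and none passed the slope test. These 18 relations were tested without adjustment over the list, and the FDR over all genes of the slopes is given beside them. None of these p-values or FDRs accounts for the choice of the ratio after the members' values were seen.

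**Figure D4:**
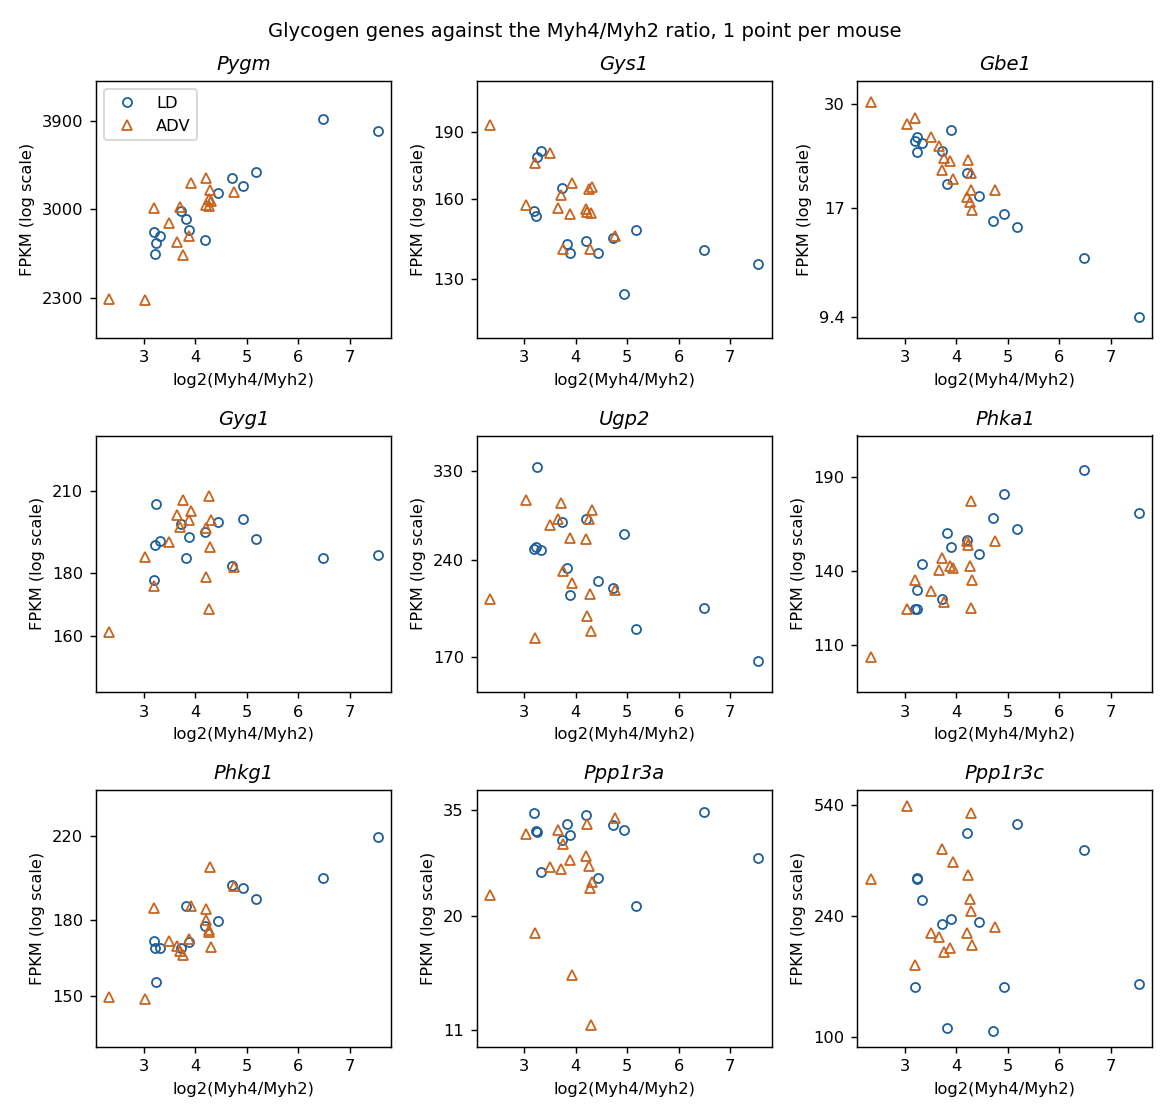
FPKM of each glycogen gene (y axes, log scale) against log2(Myh4/Myh2) (x axes), with 1 point per mouse, LD as blue circles and ADV as orange triangles. Pygm, Phka1 and Phkg1 climb and Gbe1 descends with the ratio, and the 2 LD mice at 6.48 and 7.55 lie far to the right.

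At equal Myh4/Myh2, 0 of 9 members differed between ADV and LD (edgeR, 10.1% of all genes did). Pygm had a log2 difference of 0.01 ± 0.04, Gbe1 of 0.00 ± 0.04 and Phkg1 of 0.00 ± 0.04. Gys1 had 0.05 ± 0.05, Phka1 -0.05 ± 0.05, Ugp2 -0.045 ± 0.085, Gyg1 -0.01 ± 0.04 and Ppp1r3c 0.15 ± 0.24. Ppp1r3a had -0.26 ± 0.12 (FDR = 0.136), or -0.08 with the GC content trend removed (edgeR FDR = 0.551). The ratio was chosen after the members' values were seen, so values near 0 for genes that follow it are not an independent result. The part of fiber type in the group differences was not tested.

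Members were also compared with each other over mice within each group, in 36 pairs. Pearson's r was at least 0.5 in both groups for 3 pairs (8.33%, beside 1.69% of all pairs of genes tested) and at most -0.5 in both for 5 (13.9%, beside 0.633%). Pairs that share a gene are not independent, and libraries, depth and GC content are shared by all. With the GC content trend removed the counts were 4 and 2. Pygm with Phka1, Pygm with Phkg1, Phka1 with Phkg1 and Gys1 with Ugp2 were positive, and Pygm with Gbe1 and Gbe1 with Phka1 were negative. The shares of all pairs above were computed with the trend left in, so these 2 counts have no background beside them. Pygm and Phkg1, the enzyme and the catalytic subunit of its kinase, had r = 0.87 in LD (rho = 0.88; 0.80 without the 2 mice farthest from the median; permutation p = 5e-05) and 0.86 in ADV (rho = 0.80; 0.68; permutation p = 2e-05). Pygm and Gbe1 had r = -0.92 in LD (rho = -0.84; -0.88; permutation p = 2e-05) and -0.71 in ADV (rho = -0.70; -0.45; permutation p = 0.00214). Gyg1 and Ugp2, which act at the start of synthesis, had r of 0.52 (permutation p = 0.0584) and 0.57 (permutation p = 0.0222), or 0.35 and 0.68 with the trend removed. Ppp1r3a and Ppp1r3c, the phosphatase-targeting pair, had r of -0.27 (permutation p = 0.351) and -0.34 (permutation p = 0.201). These p-values are unadjusted.

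**Figure D5:**
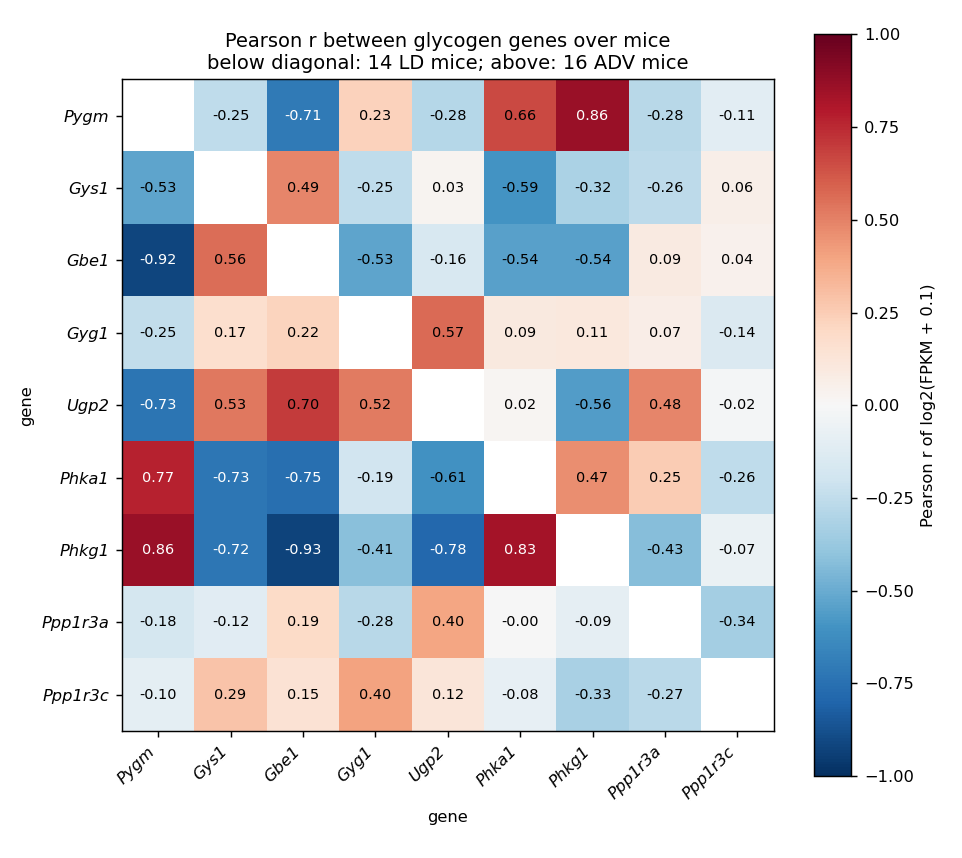
Pearson's r of log2(FPKM + 0.1) between each pair of glycogen genes, over 14 LD mice (below the diagonal) and 16 ADV mice (above), with red for positive and blue for negative values. Pygm, Phka1 and Phkg1 correlate positively with one another and negatively with Gbe1 in both groups.

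The genes most like each member over the 30 mice, by Pearson's r of deviations from the group mean, split the members further and are given as a description. Pygm went with Mybpc2 (r = 0.95), a fast myosin-binding protein, Myh4 (0.91) and Gaa (0.89), the lysosomal glycogen-degrading enzyme. Phkg1 went with Pvalb (0.91), a calcium buffer of fast fibers, Ckm (0.90) and Anapc5 (0.89). Gbe1 went with Myh2 (0.93), Smtnl1 (0.92) and Arpp21 (0.92, mean 1.15 FPKM). Phka1 went with Eya4 (0.84), Jak1 (0.83) and Prkab2 (0.80), a subunit of AMP-activated kinase that can bind glycogen. Gys1 went with Ogdh (0.86), a citric acid cycle enzyme, Mfn2 (0.83) and Epas1 (0.78). Ppp1r3c went with Fkbp5 (0.84), a glucocorticoid-induced gene, Foxo1 (0.83), a transcription factor of fasting, and Rab7 (0.83).

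For the other members the likeness was weaker or moved with GC content. Gyg1 had no gene above 0.61 (Lrrc2, Sar1a and 2610035D17Rik at 0.61, 0.61 and 0.60), and with the GC content trend removed these were 0.60, 0.82 and 0.55. Ppp1r3a went with Trim23 (0.92), Zfp654 (0.91) and Ube3a (0.90), whose GC contents of 37.3%, 36.9% and 37.1% were close to its own 36.7%, and with the GC content trend removed r was 0.735 for Trim23, 0.73 for Zfp654 and 0.66 for Ube3a. Ugp2 (40.4% GC) went with Fbxo30 (0.81, 40.1% GC), Tpp2 (0.79) and mt-Tw (0.78), and these values were 0.65, 0.61 and 0.60 with the trend removed.

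Of 50 further genes of glycogen metabolism and its control, 47 were tested (Gys2, Ppp1r3b and Ppp1r3g were too low). Of these, 6 were lower and 2 higher in ADV, and 39 did not pass, beside 5.12% and 5.74% of all genes. Their median log2 fold change was -0.03. The lower genes were Phkb, the shared beta subunit of phosphorylase kinase (-0.20 ± 0.06, edgeR FDR = 0.0226), Pgm2l1, which makes glucose bisphosphate (-0.30 ± 0.09, FDR = 0.0255), Prkaa2 (-0.265 ± 0.067, FDR = 0.0129) and Prkab2 (-0.21 ± 0.07, FDR = 0.0401) of AMP-activated kinase, and Prkacb (-0.16 ± 0.05, FDR = 0.0319) and Prkar2a (-0.14 ± 0.04, FDR = 0.0278) of protein kinase A. The higher genes were the kinase Akt1 (0.19 ± 0.05, FDR = 0.0191) and the glucose transporter Slc2a1 (0.40 ± 0.10, FDR = 0.0124). Phkb ran from 76.1 to 98.3 FPKM in LD with a median of 87.6, and from 58.2 to 88.1 in ADV with a median of 79.1, with 1 of 16 ADV mice above the LD median. Thus the beta subunit passed the test while the alpha and gamma subunits did not, and the difference between subunits was not tested.

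With the GC content trend removed, 3 of these 8 passed: Pgm2l1, Prkaa2 and Slc2a1. The share of all genes called in that fit is not given here, so the drop cannot be read as particular to these genes. Of the 30 fits that left out 1 library, Prkab2 lost its call in 13 (highest edgeR FDR 0.0754), Prkacb in 5 (0.0583) and Prkar2a in 1 (0.0505), and these 3 also lost it without ADV mice 25 and 34. With the clock ratio as a covariate 0 passed (edgeR, 0% of all genes), and with Myh4/Myh2 4 did. Among the most abundant of these genes, phosphoglucomutase Pgm1 (441 FPKM, log2 fold change -0.13 ± 0.07, FDR = 0.183), the insulin-responsive glucose transporter Slc2a4 (188.5 FPKM, 0.02 ± 0.05) and Calm3, which encodes calmodulin (132 FPKM, -0.06 ± 0.07), did not pass.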

How the data were processed

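For 30 libraries the authors trimmed the read pairs (Trimmomatic), aligned them to GRCm39 (STAR 2.7.10a), dropped reads of low mapping quality and counted exon reads with HOMER 4.11 on UCSC canonical transcripts. They deposited estimated counts, without normalization, in which each mate counts as a fraction of a read (14.83% of values are not whole), and FPKM values. Counting by strand is not given in the sources used here. For each symbol the longest expressed row was kept, and counts were rounded. Groups came from the labels. Counts were tested with edgeR 4.0.16 (quasi-likelihood, TMM) in R 4.3.3, with Benjamini-Hochberg adjustment over 12030 genes. Slopes on log2(Dbp/Bmal1) were fitted per group with the ratio centred, and spread was tested with limma 3.58.1. Single values used 100000 permutations or the exact Wilcoxon test (scipy 1.17.1). Scripts were tested on simulated data. Alternatives included DESeq2 1.42.0, other normalizations, filters and pseudocounts, GC content trend removal and leaving out each library. Members and gene lists were chosen with earlier results of these data known, and the Myh4/Myh2 ratio after the members' values were seen. Named genes were the 9 members, other pathway genes with an FDR under 0.05, the 6 most abundant pathway genes, and the 3 genes most like each member; 2 of the abundant genes are not reported here. No libraries agreed within sampling noise (smallest chi-square per degree of freedom 10.55), and p-values measure the spread between single mice.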

Additional observations from a re-analysis of the deposited data

How the results depend on the processing

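The count of 0 members in the comparison of ADV with LD, at equal clock ratio, in the slopes on the clock ratio and in the spread held under every alternative run, including leaving out each library. Apart from ADV against LD (10.9% of all genes), these tests called at most 0.399% of all genes in the main fits. A count of 0 in them therefore says little about the members. The clock slopes, none called, had the opposite sign in 6 of 99 refits in LD, 12 of 99 in ADV and 10 of 99 for their difference.

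The 2 members under 0.05 by Wilcoxon became 1 with TMM-normalized CPM and 1 with TPM (exact p of Gys1 0.0523 and 0.142), and 1 to 3 when a library was left out (1 without LD 31, LD 33, ADV 25, ADV 27 or ADV 34, with Ppp1r3a at 0.0511 to 0.0555). The 4 slopes on Myh4/Myh2 in ADV became 1 without the 2 extreme mice of each group, and 1 to 4 when a library was left out. The 8 other pathway genes became 3 with no filter on low values, 3 with the GC content trend removed, 0 with the clock ratio 4 with Myh4/Myh2 as a covariate, 5 without ADV 25 and ADV 34 together (chosen after seeing the data), and 5 to 9 when a library was left out (5 without LD 35). The 5 negative member pairs became 2 with the GC content trend removed, and the 3 positive pairs 4, with no share of all pairs computed for that setting. Whether equal label numbers pair the mice is not known. Of 14 same-numbered pairs, 6 had r over 0.1 (range -0.261 to 0.431) and 3 matched best, which does not settle it. With the number as a replicate block the count of other pathway genes was 2, against 3 in the same 28 libraries without the block. In either fit 0 members were called. For most of the alternatives in this paragraph the share of all genes called is not given here. Lower counts of pathway genes therefore cannot be read as particular to them.

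Values near 0 changed sign. Slc2a4 was -0.05 (-0.053) with the GC content trend removed, -0.005 without ADV 25 and ADV 34, and from -0.003 to 0.043 when a library was left out. Ugp2 was from -0.023 to 0.056 when a library was left out, and at equal ratio 0.00 with log2 Dbp alone and from -0.061 to 0.045. At equal ratio Gyg1 was from -0.052 to 0.004 and Ppp1r3c from -0.082 to 0.214. The spread difference was from -0.004 to 0.045 for Ugp2 and from -0.025 to 0.002 for Phkg1. The cause of these changes was not tested. Gbe1 had the fewest reads of the members, with a mean of 1512, and counting error was not measured apart from the spread between mice.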
